A study of Mus musculus with 8 samples.

Results

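The genes described here are the Wnt ligands, their receptors, the secreted proteins that enhance or block them, and the core of the beta-catenin branch of the pathway. They were taken by name, as the mouse symbols that begin with Wnt, Fzd, Sfrp, Dkk or Rspo followed by a digit, together with Frzb, Wif1, Lrp5, Lrp6, Axin1, Axin2, Ctnnb1, Lef1, Tcf7, Tcf7l1 and Tcf7l2. The rule uses names and no measured value, and it was set with earlier results of these data known. It was met by 53 symbols of the RefSeq gene list, and 51 of them had a probe matched by accession, of 17178 genes with a matched probe in all. Lrp6 and Fzd10os had none. The 51 genes had 67 probes, and 59 of them, for 44 genes, were bright enough to be tested, against 14449 genes tested in all.

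Transcripts were measured at E13.5 in dissected medial ganglionic eminence (MGE), the part of the ventral forebrain that makes many cortical interneurons, in 4 WT and 4 Nkx2-1cKO samples with 1 sample per 1-colour Agilent array. All mice were C57BL/6 and carried a floxed allele of Nkx2-1, the transcription factor that specifies the MGE. The labels give the WT genotype as Nkx2-1flox/+ without Olig2tva-cre and the mutant genotype as Nkx2-1flox/+ with Olig2tva-cre, so the mutant arrays are labelled as heterozygous for the floxed allele, while the study calls them conditional mutants and its methods name a strain with both alleles floxed. The Cre is driven from the Olig2 locus, so recombination is limited to cells in which Olig2 is or was active. The labels do not say whether a sample came from 1 embryo or a pool, and p-values measure the spread between these samples.

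Wnt proteins are secreted lipid-modified ligands that bind Frizzled receptors together with the co-receptors Lrp5 and Lrp6. When the canonical branch is active, the complex built on Axin no longer degrades beta-catenin, which enters the nucleus and acts with TCF and LEF proteins on target genes. In the embryonic forebrain Wnt proteins made at the dorsal midline are known for patterning the cortex, and many antagonists are made in regions that keep the pathway low. The study's question for the arrays was which transcripts of the MGE depend on NKX2-1, and the comparison below puts it to the Wnt genes.

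Values are log2 signals scaled so that 0 is the 75th percentile of the array, and differences are Nkx2-1cKO minus WT. Nkx2-1 itself was at 1.87 ± 0.06 (SD, n = 4) in WT and at -4.46 ± 0.19 (SD, n = 4) in the Nkx2-1cKO, a difference of -6.34 (limma, adjusted p = 4.67e-09). This is 1.24% of the WT level on arrays labelled as heterozygous for the floxed allele, and how the label goes with this level was not tested. The arrays had between 71.1% and 79.5% of their probes well above background and lay on 2 slides, each with 2 WT and 2 Nkx2-1cKO samples. Slide 1 held WT 1, WT 3, Nkx2-1cKO 2 and Nkx2-1cKO 4, and slide 2 held the other arrays. WT 1 stood apart at the dim end, where the dimmest of 5 equal bins of probes lay a median of 1.18 above the other arrays, and it gave the highest of the 8 values for 19 of the 44 tested Wnt genes. Nkx2-1, Lhx6 and Lhx8, which define the MGE, were above background throughout the 4 WT arrays and fell in the Nkx2-1cKO. Of 11 markers of the neighbouring lateral and caudal ganglionic eminences (LGE and CGE), 5 rose in the Nkx2-1cKO, and their summed signal, in units of the 75th percentile, was 43.6 to 57.1 on the WT arrays and 80.1 to 89.3 on the mutant arrays. In dissected tissue, fewer cells of a type and less RNA per cell cannot be told apart.

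Of the 44 tested Wnt genes, 2 rose in the Nkx2-1cKO and 1 fell at an adjusted p under 0.05, which compares with 0.491% of all genes tested that rose and 0.851% that fell. The genes that rose were Tcf7l2, which encodes a DNA-binding partner of beta-catenin, by 1.98-fold, and Fzd8, which encodes a Frizzled receptor, by 1.89-fold. The gene that fell was Frzb, which encodes a secreted Wnt antagonist, to 37.5% of its WT level. On 5 genes the 2 groups did not overlap, with all mutant arrays higher for Tcf7l2, Fzd8 and the ligand gene Wnt3 and all mutant arrays lower for Frzb and for Dkk1, which encodes an antagonist that binds Lrp co-receptors. Of all genes tested, 2.8% had every mutant array above every WT array and 4.02% had every mutant array below. At an unadjusted p under 0.05 in limma, 5 Wnt genes were higher and 5 lower, against 615 higher and 754 lower of all 14449 genes tested.

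**Figure D1:**
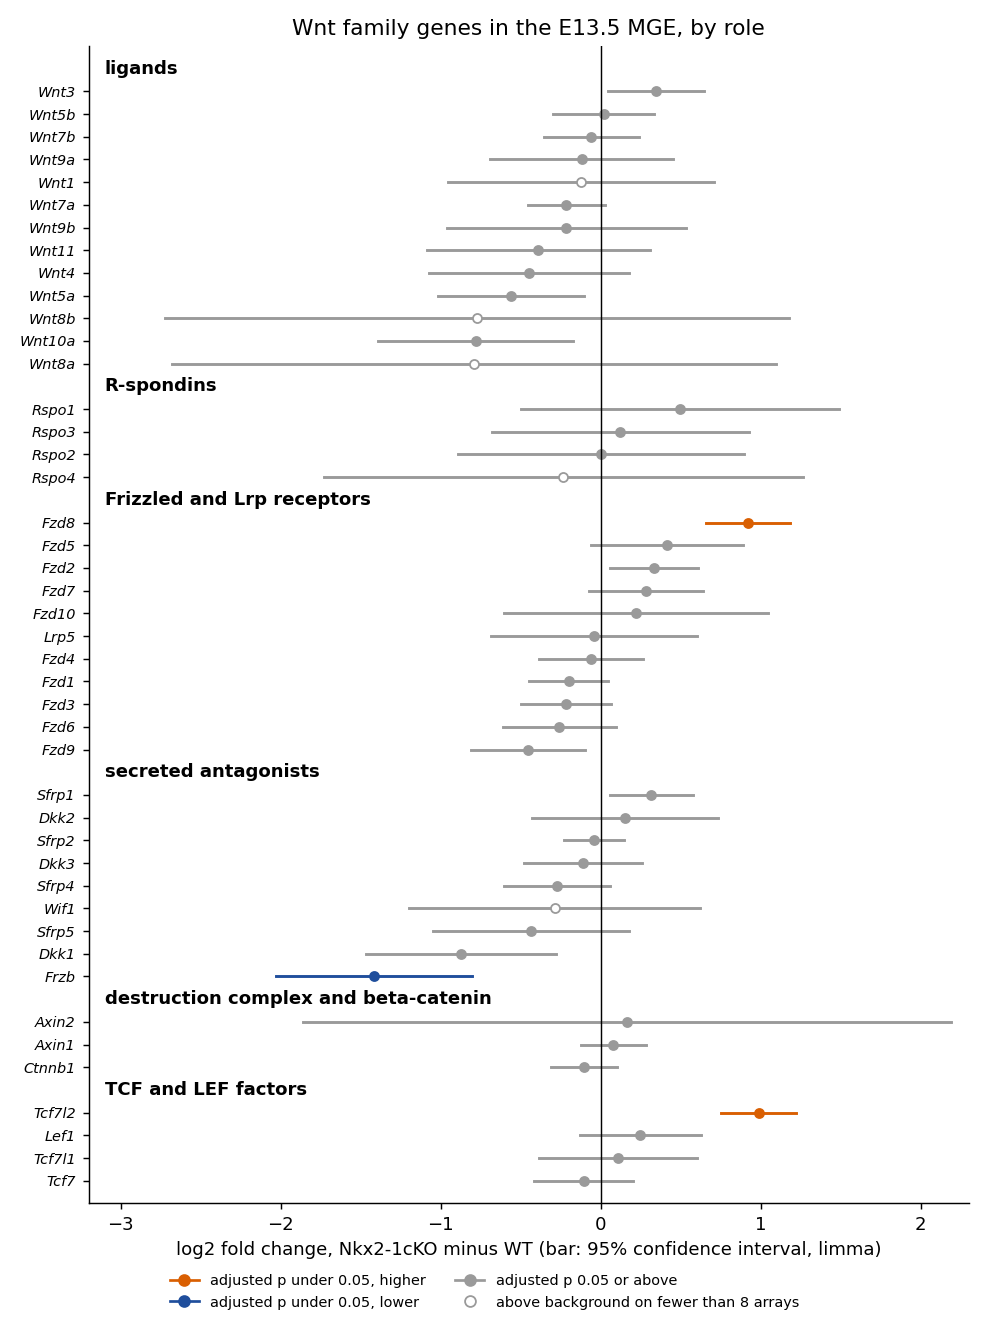
Log2 fold change of each of the 44 tested Wnt genes, Nkx2-1cKO minus WT, with its 95% confidence interval from limma (n = 4 arrays per group), grouped by role; colour marks the genes past the adjusted p threshold and open points mark genes above background on fewer than 8 arrays. Tcf7l2 at 0.99 and Fzd8 at 0.92 lie to the right of 0 and Frzb at -1.41 lies to the left. The interval of Axin2, whose arrays split by slide, is among the widest in this fit without slide, from -1.86 to 2.19.

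For most of the family the arrays bounded the change without a call. The 95% interval lay within 1 of 0 on the log2 scale for 28 of the 44 genes and within 0.5 for 11, so for the other 16 genes a change of 2-fold was not outside the interval in at least 1 direction. The median difference over the 44 genes was -0.10, with 17 genes above 0 and 27 below. This median went with signal: when all genes tested were split by mean signal into 5 equal bins, 32 of the 44 Wnt genes were in the 2 dimmest, and over all genes the dimmest bin had a median difference of -0.38 while the brightest had 0.08. Without WT 1, the median of the dimmest bin was -0.11, and 21 Wnt genes were above 0 and 23 below.

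**Figure D2:**
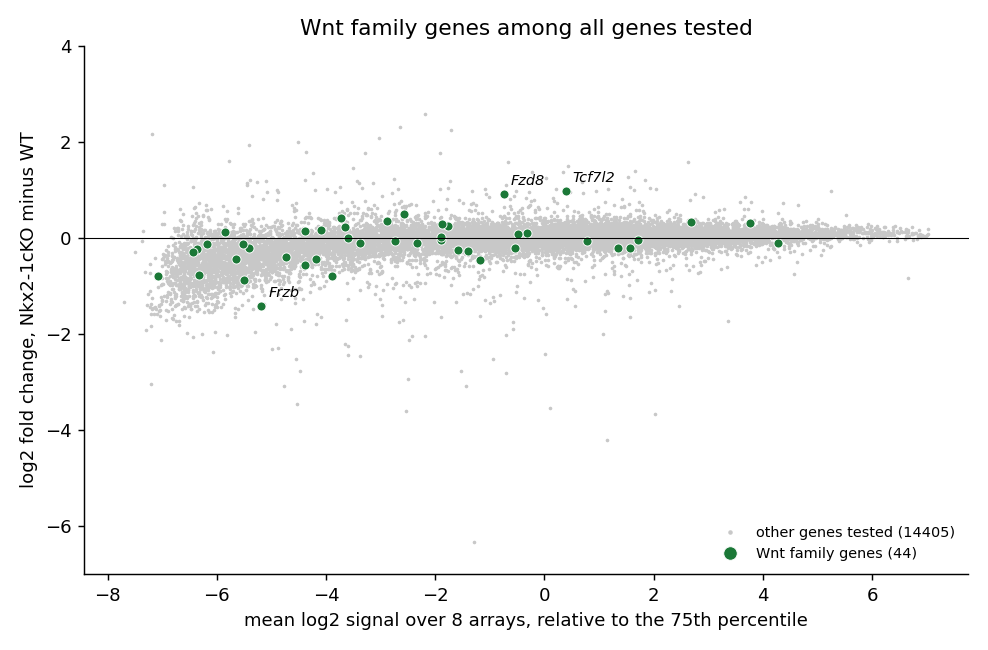
Log2 fold change, Nkx2-1cKO minus WT, against mean log2 signal over the 8 arrays for the 44 Wnt genes (large points) and the 14405 other genes tested (small points). Dim genes to the left scatter more and lie below 0 on average, Frzb at -1.41 lies below most genes of like signal, and Tcf7l2 at 0.99 and Fzd8 at 0.92 lie above most of theirs.

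Among the ligands, none of 13 tested genes passed the adjusted threshold. Limma gave 1 higher and 2 lower at an unadjusted p under 0.05, against 615 and 754 of all 14449 genes tested. Wnt3, one of the ligands of the canonical branch, had signals of -3.07, -3.15, -3.11 and -2.90 on WT arrays 1 to 4 and of -2.41, -2.80, -2.73 and -2.90 on the mutant arrays. All 4 mutant values lay above all WT values, although the closest pair, WT 4 and Nkx2-1cKO 4, was nearly level. The difference was 0.35 (SE 0.134, adjusted p = 0.496 in limma). The exact two-sided permutation p was 0.0286, the smallest that 4 arrays against 4 can give. Any probe without overlap of the groups has that p, so it adds nothing to the absence of overlap. On its second probe the groups overlapped and the difference was 0.27. Wnt5b differed by 0.02 on its brighter probe, with an interval from -0.29 to 0.33, and by -0.50 on its other probe (adjusted p = 0.647), a sign that turned when the 2 probes were averaged. The lowest differences were those of Wnt8a, at -0.79 with SE 0.842, and Wnt10a, at -0.78 with SE 0.272 and an adjusted p of 0.421.

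Wnt8a was above background on 2 arrays of each group, and its SE was larger than its difference. It was at -4.92 on WT 1 and between -7.91 and -6.59 on the other WT arrays, and without WT 1 its difference was -0.20. Wnt10a was above background on all 8 arrays, with WT signals of -3.95, -3.95, -3.14 and -2.98 and mutant signals of -4.36, -4.13, -3.92 and -4.72. Only Nkx2-1cKO 3 reached above the 2 lowest WT arrays. The other 9 tested ligand genes lay between -0.77 and -0.06, with no adjusted p under the threshold. Of the ligand genes, 6 were not tested: Wnt2, Wnt2b, Wnt3a and Wnt10b were above background on 0 of the 8 arrays, Wnt6 on 1 and Wnt16 on 3. Several of these are ligands of the dorsal midline, and the 5 tested markers of the cortical hem and choroid plexus had a summed signal of 0.345 to 0.657 on the WT arrays and 0.239 to 0.465 on the mutant arrays, with Lmx1a, Ttr and Msx2 too dim to test. Otx2 is 1 of the 5, and the study names it with Nkx2-1 in the start of MGE fate. The sum therefore does not read dorsal midline tissue alone.

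The R-spondins, secreted enhancers that act through Lgr receptors, had no called change, and for Rspo1 and Rspo2 the mutant arrays spread further than the groups differed. Rspo1 had signals of -2.06, -3.29, -3.00 and -2.93 on WT arrays 1 to 4. On the mutant arrays it was at -1.69 and -1.32 on the first 2 and at -3.06 and -3.23 on the other 2. Rspo2, named after its values were seen, had the same split, with mutant signals of -3.06, -2.75, -4.37 and -4.23 beside WT signals of -2.82, -3.80, -3.94 and -3.87. The 2 mutant arrays that were high for both genes lay on different slides, and the high WT array was again WT 1. The group differences were 0.50 for Rspo1 (SE 0.443), 0.00 for Rspo2 (SE 0.399), 0.12 for Rspo3 and -0.23 for Rspo4, and none passed the threshold. None had an unadjusted p under 0.05 in limma either.

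Among the receptors, Fzd8 rose and the other 10 tested genes did not pass the threshold. The signals of Fzd8 were -1.19, -1.28, -1.38 and -0.97 on WT arrays 1 to 4 and -0.20, -0.50, -0.19 and -0.24 on the mutant arrays. Every mutant array was above every WT array, with a gap of 0.47 between the nearest 2, and Nkx2-1cKO 2 was the lowest mutant array. The difference was 0.92 (SE 0.117, adjusted p = 0.00478). It was 0.91 within slide 1 and 0.93 within slide 2. Fzd8 passed in 17 of 18 alternative analyses, with an adjusted p of 0.0756 when replicate number was a block.

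No other receptor had a called change. Fzd5, a Frizzled of eye and forebrain development, was at -3.37, -4.39, -4.09 and -3.89 on the WT arrays and at -3.55, -3.49, -3.72 and -3.34 on the mutant arrays, with only WT 1 among the mutant values, and differed by 0.41 (SE 0.212, adjusted p = 0.624). Its dimmer probe differed by 0.99 (SE 0.275, adjusted p = 0.224). Fzd9 had the lowest difference of the receptors, -0.45 (SE 0.159, adjusted p = 0.427), with WT signals from -1.16 to -0.76 and mutant signals from -1.73 to -0.99. Fzd6 differed by -0.26 (adjusted p = 0.657). Lrp5, the one co-receptor gene with a probe, differed by -0.04 with an interval from -0.68 to 0.60, and its sign turned under several alternatives.

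**Figure D3:**
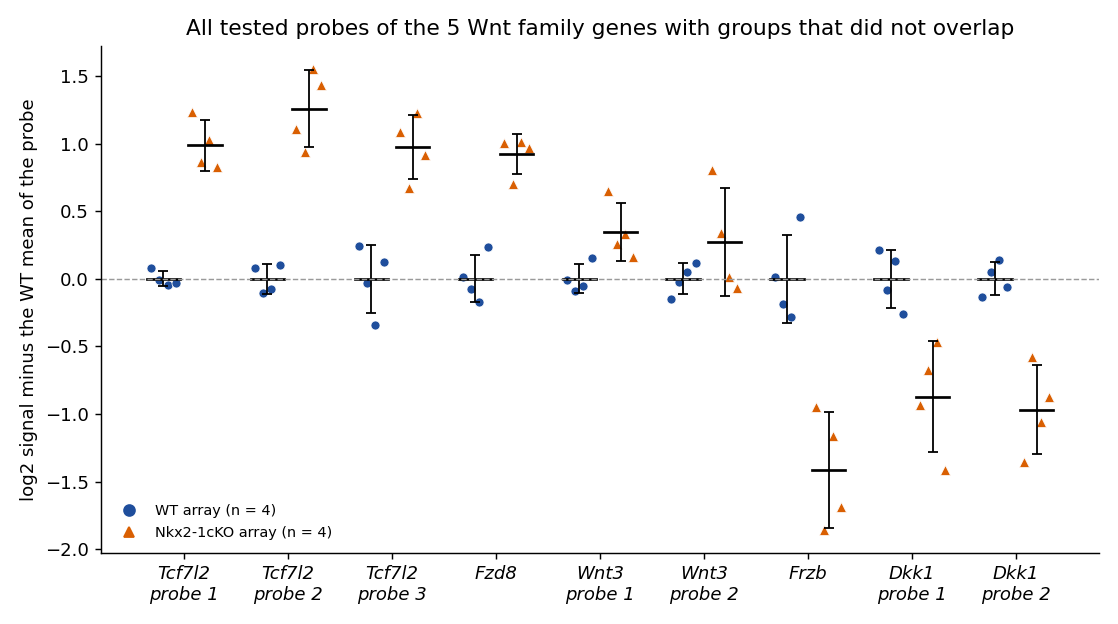
Log2 signal minus the WT mean of the probe, on each of the 4 WT arrays (circles) and 4 Nkx2-1cKO arrays (triangles), for all tested probes of Tcf7l2, Fzd8, Wnt3, Frzb and Dkk1; lines are group means and bars are SD. All 3 probes of Tcf7l2 and both probes of Dkk1 separate the groups, while the second probe of Wnt3 does not.

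The secreted antagonists held the gene that fell. Frzb, which encodes a soluble Frizzled-related protein that binds Wnt proteins, had signals of -4.46, -4.67, -4.76 and -4.02 on WT arrays 1 to 4 and of -5.43, -6.33, -5.64 and -6.17 on the mutant arrays. The groups did not overlap, with 0.67 between the lowest WT and the highest mutant array, and all 8 arrays were above background. The difference was -1.41 (SE 0.274, adjusted p = 0.0469). The call was lost in 13 of 18 alternative analyses, among them leaving out any 1 of the 8 arrays (adjusted p from 0.0606 to 0.162), while the difference stayed between -1.57 and -0.70. With slide as a block the adjusted p was 0.0144, and the difference was -1.64 within slide 1 and -1.19 within slide 2. The 533 genes within 0.25 of its mean signal had a median difference of -0.31, which was -0.05 without WT 1, when Frzb was at -1.41. The summed signal of 10 markers of mesenchyme and pericytes was 2.70 to 3.47 on 3 WT arrays and 9.26 on WT 4, the array highest for Frzb, and 2.61 to 3.17 on the mutant arrays, and without WT 4 the difference of Frzb was -1.26. Of those 10 markers only Pdgfra fell past the threshold, and 7 of 10 differences were below 0. Pdgfra did not share the peak on WT 4, with -1.68 there and -1.97 to -1.65 on the other WT arrays. The markers not below 0 were Col1a1 at 0.70 (SE 0.808), Pdgfrb at 0.07 and Rgs5 at 0.05. Of 7 septum markers Six3 rose and none fell, and their summed signal, of which Zic1 made up the most, was 9.002 to 14.8 on the WT arrays and 7.02 to 9.25 on the 3 mutant arrays with a value for each marker. The part of these markers in the change of Frzb was not tested.

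Dkk1 had 2 tested probes, and on both every mutant array was below every WT array. On the brighter probe the WT signals were -4.85, -5.15, -4.94 and -5.33 and the mutant signals were -6.00, -5.74, -5.53 and -6.48. The difference was -0.87 (SE 0.265, adjusted p = 0.298), and on the other probe it was -0.97 (SE 0.261, adjusted p = 0.203). The exact two-sided permutation p was 0.0286 for each, as it is for any probe without overlap of the groups. Neither probe of Dkk1 passed the threshold over all probes. The 557 genes of like signal had a median difference of -0.38, and -0.12 without WT 1, when Dkk1 was at -0.80. Its difference was -1.21 within slide 1 and -0.53 within slide 2. It was -0.48 after quantile normalization and -0.32 after normexp, and between -1.01 and -0.69 when 1 array was left out.

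Of the remaining antagonists, Sfrp1, which is known as a strong marker of forebrain progenitors, had the largest positive difference, 0.32 (SE 0.116, adjusted p = 0.452) on its brighter probe and 0.26 (SE 0.111, adjusted p = 0.554) on its other probe. The WT signals were 3.65, 3.66, 3.38 and 3.70 and the mutant signals were 3.94, 3.62, 4.08 and 4.02. Only Nkx2-1cKO 2 fell among the WT values, and on the other probe no array did. Dkk2 differed by 0.15 with an interval from -0.43 to 0.73. Wif1, which binds Wnt proteins directly, was above background on 5 of the 8 arrays and differed by -0.29 (SE 0.406). The other 4 tested antagonist genes lay between -0.43 and -0.04. Dkk4 was above background on 3 of 8 arrays and was not tested.

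The upstream sequences of Frzb and Dkk1 are shown because both antagonist genes were lower on every mutant array, with matches to CTTTGA, the core of the TCF and LEF motif, in capitals on either strand. They are the 250 bases before the start of each gene in RefSeq on GRCm38.p6, read in the direction of the gene, for Frzb chr2:80447397-80447646 on the minus strand and for Dkk1 chr19:30549497-30549746 on the minus strand.
Frzb: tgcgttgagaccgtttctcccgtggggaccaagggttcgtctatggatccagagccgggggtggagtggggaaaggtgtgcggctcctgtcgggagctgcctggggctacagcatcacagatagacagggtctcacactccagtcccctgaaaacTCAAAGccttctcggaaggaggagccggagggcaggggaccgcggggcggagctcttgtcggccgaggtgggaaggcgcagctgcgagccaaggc
Dkk1: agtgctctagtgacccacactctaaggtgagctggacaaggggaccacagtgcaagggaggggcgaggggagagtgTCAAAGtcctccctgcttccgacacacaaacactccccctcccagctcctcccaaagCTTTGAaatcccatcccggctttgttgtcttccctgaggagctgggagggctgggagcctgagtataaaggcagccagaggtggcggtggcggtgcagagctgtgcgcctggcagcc
Frzb held 1 match, which began 95 bases before the start, and Dkk1 held 2, which began 174 and 117 bases before it. This motif was in 13.8% of all 32851 upstream sequences of the same length and in 6 of the 44 upstream sequences, or 13.6%, of the 35 Wnt genes with an entry. The motif CAAGTG, which NKX2-1 is known to bind and which is also one form of the E-box, was in 11.6% of all and in 9.09% of the Wnt upstream sequences, and in neither Frzb nor Dkk1. A match is a run of letters and not a site.

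Beta-catenin and the scaffold of its destruction complex showed no called change. Ctnnb1, which encodes beta-catenin, differed by -0.10 with an interval from -0.31 to 0.11, and its other probe by -0.05. Axin1 differed by 0.08 with an interval from -0.12 to 0.29. These are among the tighter bounds of the family. Limma gave none of the 3 genes an unadjusted p under 0.05.

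Axin2, a negative regulator of the pathway that is widely used as a target gene to read its activity, followed the slide and not the genotype. On slide 1 its signals were -2.58 on WT 1, -2.80 on WT 3, -2.65 on Nkx2-1cKO 2 and -2.78 on Nkx2-1cKO 4. On slide 2 they lay between -5.75 and -5.28, with WT 2 and WT 4 below both mutant arrays. The slides differed by 2.77 (SE 0.140, adjusted p = 5.94e-06 in a limma fit with group and slide), against a group difference of 0.17 (SE 0.905, adjusted p = 0.959). Within slides the group difference was -0.02 on slide 1 and 0.36 on slide 2, and with slide as a block its adjusted p was 0.552. The arrays therefore bound a genotype effect on Axin2 only loosely when the slides are pooled without a slide term. Each slide held 2 arrays of each group, so in the fit with group and slide the group difference has that same SE, 0.140. The bound on a genotype effect is tighter there.

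**Figure D4:**
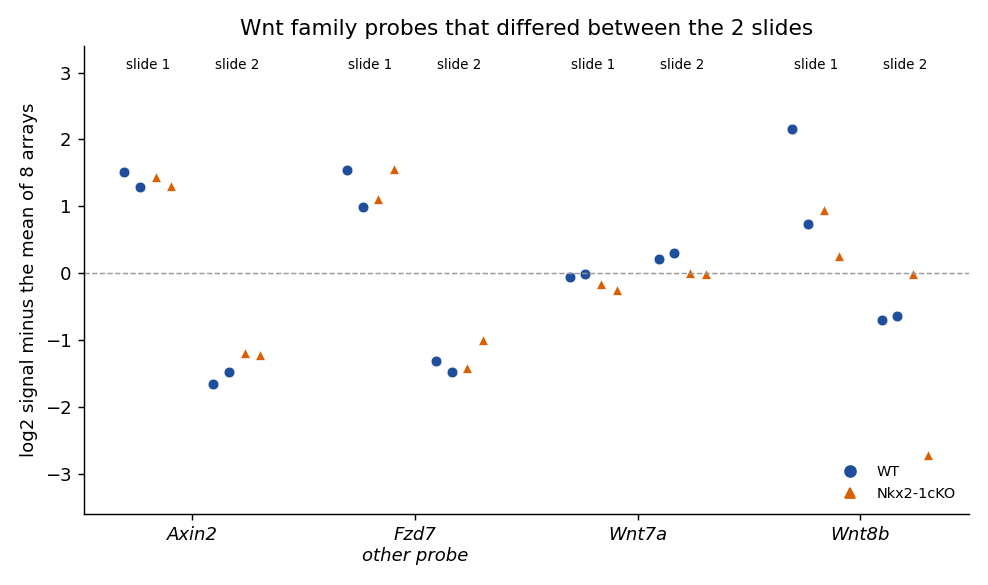
Log2 signal minus the mean of the 8 arrays for the 4 Wnt probes that differed between slides at an adjusted p under 0.05, with slide 1 on the left and slide 2 on the right of each gene; circles are WT and triangles Nkx2-1cKO arrays. Axin2 and the other probe of Fzd7 split by slide by 2.77 and 2.60, with both genotypes on each side of the split.

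The slide split touched other Wnt probes too, named here after their values were seen. The dimmer probe of Fzd7 differed by 2.60 between slides (adjusted p = 3.87e-05), while its brighter probe did not pass. Wnt8b differed by 2.05 (adjusted p = 0.0492) and Wnt7a by 0.25 with slide 2 higher (adjusted p = 0.0264). In all, 4 of the 59 tested Wnt probes differed between slides, or 6.78%, against 14.2% of all 31283 probes tested. None of the probes of Tcf7l2, Fzd8, Frzb or Dkk1 was among them.

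Among the TCF and LEF factors, Tcf7l2 rose on all 3 of its probes. On the brightest probe the signals were -0.02, -0.12, -0.15 and -0.13 on WT arrays 1 to 4 and 1.13, 0.76, 0.92 and 0.72 on the mutant arrays. The WT arrays spanned 0.12 and the lowest mutant array lay 0.74 above the highest of them. The difference was 0.99 (SE 0.104, adjusted p = 0.00159). The other probes gave 1.26 (SE 0.154, adjusted p = 0.00383) and 0.97 (SE 0.174, adjusted p = 0.0306), again with no overlap of the groups. Within slides the difference on the brightest probe was 0.82 and 1.15, and it passed the threshold in all 18 alternative analyses, replicate block included. The rise of Tcf7l2 and Fzd8 went with higher signals of other markers on the same arrays. Of the 11 LGE and CGE markers, Zfp503, Ebf1, Isl1, Meis2 and Foxp2 rose. The rest did not pass the threshold, with Foxp1 at 0.64, Gsx2 at 0.42, Sp8 at 0.34, Nr2f1 at 0.10, Prox1 at -0.04 and Nr2f2 at -0.13. Among the 6 markers of ventral pallium and antihem, Dbx1 and Nrg1 rose. The sum of the 6 was 1.36 to 1.75 in WT and 2.11 to 2.69 in the mutant. Six3 differed by 0.99 (adjusted p = 0.00336). The part of these markers in the rise of Tcf7l2 and Fzd8 was not tested.

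The upstream sequences of both Tcf7l2 starts in RefSeq are shown, since it is the gene of the family that changed under every analysis. They are the 250 bases before each start on GRCm38.p6, on the plus strand, at chr19:55741560-55741809 for the first start and at chr19:55895071-55895320 for the second.
Tcf7l2 first start: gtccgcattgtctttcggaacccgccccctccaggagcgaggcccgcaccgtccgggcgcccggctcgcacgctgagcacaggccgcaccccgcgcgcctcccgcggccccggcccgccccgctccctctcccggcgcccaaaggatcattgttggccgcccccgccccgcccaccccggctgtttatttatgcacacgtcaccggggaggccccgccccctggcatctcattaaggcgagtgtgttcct
Tcf7l2 second start: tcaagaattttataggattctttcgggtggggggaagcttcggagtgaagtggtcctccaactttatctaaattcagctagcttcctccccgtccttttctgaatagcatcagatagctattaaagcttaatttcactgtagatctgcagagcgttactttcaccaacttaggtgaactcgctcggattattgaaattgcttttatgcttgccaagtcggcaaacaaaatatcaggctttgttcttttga
Neither held the CAAGTG or the CTTTGA motif on either strand, which is why no letter is in capitals. A search for TAATTA, the core of many LHX sites, found no match either, and this motif was in 4.84% of all upstream sequences. The MEIS motif TGACAG, which was in 15.9% of all, was also not found. G and C made up 72.8% of the first sequence and 40.8% of the second. The files do not show which start the transcripts came from.

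The other 3 factors did not pass the threshold. Lef1 differed by 0.25 (SE 0.170, adjusted p = 0.664), with WT 3 lowest at -2.32 and the other 7 arrays between -1.92 and -1.41. Tcf7l1 differed by 0.11 with an interval from -0.38 to 0.60 and by 0.14 on its other probe. Tcf7, at -0.10, had an interval from -0.42 to 0.21, and its other probe was at 0.09. These intervals exclude a change as large as the one measured for Tcf7l2, whose own interval ran from 0.76 to 1.22.

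The rest of the pathway was read from a list of 58 symbols, of which 56 were tested. They cover Wnt release, other receptors, transducers, nuclear cofactors and the planar cell polarity branch. Aes and Tle5 are symbols of the same gene, tested as Tle5, and Bcl9 was not tested. Of the 56 tested, 1 rose and 0 fell, against 0.491% and 0.851% of all genes tested, and the median difference was 0.00. At an unadjusted p under 0.05 in limma, 4 were higher and 2 lower, against 615 and 754 of all 14449 genes tested. The gene that rose was Tle4, which encodes a Groucho-type corepressor that binds TCF proteins. Its signals were 4.18, 3.97, 3.93 and 3.96 on WT arrays 1 to 4 and 4.69, 4.49, 4.54 and 4.40 on the mutant arrays, without overlap. The difference was 0.52 (SE 0.088, adjusted p = 0.0234), and it stayed past the threshold in 10 of 18 alternative analyses, with 3 of the 8 that left out 1 array. The study names Tle4, beside Isl1, Ebf1 and Zfp503, as a gene expressed more in LGE and CGE than in MGE. The part of the LGE and CGE markers in the rise of Tle4 was not tested.

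A paralogue of Tle4 depended on 1 array. Tle2, named after its values were seen, had WT signals of 1.18, 2.28, 1.93 and 2.32 and mutant signals of 1.14, 1.31, 1.38 and 0.91, with WT 1 alone among the mutant values. It differed by -0.74 (adjusted p = 0.334) with all arrays and by -0.99 (adjusted p = 0.0156) without WT 1. The largest positive difference of the list was that of Lgr4, an R-spondin receptor, at 0.61 (SE 0.173, adjusted p = 0.242), and Ankrd6, a planar polarity gene, followed Tle4 at 0.36 (SE 0.090, adjusted p = 0.142). The lowest were those of Ror1 at -1.47, Notum at -0.88 and Prickle2 at -0.79, with SE of 1.04, 0.656 and 0.363 and no adjusted p under 0.59. Without WT 1 these were -0.95, -0.19 and -0.39. All 15 transducers, which include the Dishevelled, Apc and Gsk3 genes, had intervals within 1 of 0, and 12 had intervals within 0.5.

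Of 10 genes outside the family that are commonly read as targets of beta-catenin, 9 were tested. Nkd1, Znrf3, Rnf43, Apcdd1, Lgr5 and Notum were already counted among the other pathway genes above. Of the 9, 1 rose and 0 fell, against 0.491% and 0.851% of all genes tested. At an unadjusted p under 0.05 in limma, 1 was higher and 1 lower, against 615 and 754 of all 14449. The lower gene was Apcdd1, which was also counted as lower above. Myc, which encodes a growth-promoting transcription factor with many other inputs, was at -0.19, 0.25, 0.10 and 0.15 on the WT arrays and at 0.80, 0.60, 0.84 and 0.74 on the mutant arrays. The difference was 0.67 (SE 0.110, adjusted p = 0.0199). Its other probes gave 0.58 (adjusted p = 0.0247) and 0.46 (adjusted p = 0.136), the last not past the threshold, and on all 3 probes every mutant array was above every WT array. The other 8 target genes did not pass the threshold, with differences from -0.88 for Notum, the value that rests on WT 1, to 0.18 for Sp5. Nkd1, Tnfrsf19, Znrf3 and Rnf43 had intervals within 0.5 of 0 and lay between -0.02 and 0.12.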

How the data were processed

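RNA was extracted with RNeasy columns, amplified linearly and labelled with Cy3, and the authors deposited the Agilent Feature Extraction output of each array, in which the intensity of a spot is background-subtracted and not scaled between arrays. The submitters' processing notes give version 10.1 of that software and the file header 10.7.3.1. Per the file headers the median intensity and local background of each spot are also given. Here, control and outlier spots were left out, each array's 75th percentile was subtracted on the log2 scale, and repeated spots were averaged. No spot was saturated. Of 41174 probes, 24844 were named by accession through RefSeq (GRCm38.p6), whose coordinates were used for upstream sequences only. The 31283 probes flagged above background on 4 or more of the 8 arrays were compared with limma 3.58.1 in R 4.3.3 (lmFit, eBayes with a variance trend), p-values were adjusted by Benjamini-Hochberg across every probe compared, and the threshold was 0.05. The tested probe brightest on average stands for its gene. The number of arrays limits the precision. The procedure was tested on simulated data.

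The members, lists and alternatives were chosen with earlier results of these data known. Genes named with values are those past the threshold or without overlap, the 2 largest rises and falls in each role, and those the choice of members spells out; of the other pathway genes, those past the threshold and up to 3 in each direction. The analysis was repeated after centring on the median, quantile normalization, normexp (offset 50) on the median intensity, with no filter or a filter on mean signal, with slide or replicate number as a block, without the variance trend, on averaged probes, and without each array in turn. Array weights, and the removal of 6 spots on 1 array whose local background exceeded their signal before normexp, were chosen after seeing the data. Deviations from the group means correlated between -0.481 and -0.194 for arrays with a shared replicate number. The arrays of each such pair lay on different slides, so this correlation cannot tell whether the numbers pair samples. The chromatin and reporter experiments of the study were not analysed here.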

Additional observations from a re-analysis of the deposited data

Results flagged for a closer look

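Among the 60 groups of 4 arrays examined for the named genes, 5 held an array far from the other 3 by Dixon's criterion, where chance gives about 3. They were Fzd6 on WT 4, at -1.15 against -1.60 to -1.53, Fzd8 on Nkx2-1cKO 2, at -0.50 against -0.24 to -0.19, Lef1 on WT 3, at -2.32 against -1.78 to -1.73, Sfrp1 on WT 3, at 3.38 against 3.65 to 3.70, and Prickle2 on WT 1, at -3.18 against -4.81 to -4.74. The low mutant array of Fzd8 was still above every WT array.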

How the results depend on the processing

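Over 30 named genes and 538 values under alternatives, 489 kept the sign and the side of the threshold, 22 kept the sign and lost the call, 2 kept the sign and gained one, and 25 turned sign. Within slides, 56 of 60 differences lay within 1 SD of the value from all arrays. The 2 Wnt genes that rose became 1 with the replicate block. The 1 that fell became 0 under quantile normalization, centring on the median, normexp, no filter on dim probes and the replicate block, and was 0 (lowest and highest) when any array was left out. The 1 other pathway gene that rose became 0 under centring on the median, the replicate block and no variance trend and 3 with array weights, and ranged from 0 to 1 when 1 array was left out. The 0 other pathway genes that fell became 1 with array weights and ranged from 0 to 1 when 1 array was left out. Over all genes, the replicate block left 6 higher and 46 lower where 71 and 123 had been called. It was kept as an alternative only, because whether these numbers pair samples is not known. Centring on the median moved the median of all genes to 0.13, and with it Ctnnb1 was at 0.028, Lrp5 at 0.090 and Tcf7 at 0.025, signs opposite to those in the report. Quantile normalization turned Rspo4 to 0.22, Tcf7 to 0.015 and Wif1 to 0.19, normexp turned Rspo3 to -0.0016, array weights turned Lrp5 to 0.10 and Rspo4 to 0.22, and the mean of the probes turned Wnt5b to -0.24. Leaving out 1 array gave ranges across 0 for Axin2 (-0.36 to 0.70), Dkk2 (-0.027 to 0.41), Lrp5 (-0.22 to 0.21), Rspo3 (-0.10 to 0.46), Rspo4 (-0.64 to 0.38), Tcf7l1 (-0.035 to 0.32), Wif1 (-0.51 to 0.075) and Wnt5b (-0.080 to 0.092), none of them called in any analysis. The cause of these turns was not tested. Signal over background limits 5 of the 44 tested genes, which were below it on 1 or more arrays.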
